A study of Mus musculus with 24 samples.

Results

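The genes of mitosis and of the passage from G2 into mitosis (G2/M) were followed in T6E, a line grown from a T-cell acute lymphoblastic leukaemia of the mouse. The list names 47 genes, chosen by name for their role in mitosis, though with earlier results of these data known. Of these, 46 had a probe set with a single gene symbol on the array, among 19938 genes measured in all. Ccnb1 was not analysed here because it had no such probe set. Each gene was read at 1 probe set, the brightest where there were several, which was the case for Top2a alone. All 46 lay in the upper part of the array's range, with means over the 24 arrays from 5.53 (Cdc25b) to 10.20 (Top2a) on the log2 scale and a median rank at percentile 91.0 of all genes.

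A dividing cell enters mitosis when cyclin B and its kinase Cdk1 are switched on by Cdc25 phosphatases, and Plk1 and the Aurora kinases then drive spindle assembly. The spindle checkpoint holds the anaphase promoting complex in check until every kinetochore is attached, after which securin and the cyclins are destroyed and the midzone machinery divides the cell. Most of these genes are transcribed in a wave from late S phase to mitosis. The DREAM complex represses them in resting cells, and B-Myb and FoxM1 activate them in cycling cells, through a short promoter element called the cell-cycle genes homology region (CHR), often with CCAAT boxes nearby. In Notch-driven T-cell leukaemia, Notch1 sustains growth in large part through Myc.

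All groups were T6E cells, transfected with one of 4 constructs and given DMSO or compound E at 1 uM for 6 hours. This agent is an inhibitor of gamma-secretase (GSI) and stops the release of the active Notch fragment. MigR1 is the empty vector, DNMAML a dominant negative Mastermind-like protein that disables the Notch transcription complex, ICN1 the active intracellular part of Notch1, and R1984A an intracellular Notch1 with a defect in dimerization. There were 3 arrays in each of the 8 groups, named here by construct and treatment (MigR1-DMSO and so on). The line is 1 leukaemia, and whether a construct was studied as a pool or a clone, or the 3 samples came from separate cultures, the sources used here do not state. The p-values therefore measure only how these samples scatter, which may be technical scatter, and the number of arrays limits the precision. In RNA from a whole culture, more cells in G2 and mitosis and more RNA per such cell cannot be told apart.

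Promoter windows are shown first, because most members share 2 short motifs that the gene list did not use. RefSeq promoters (assembly GRCm38.p6, 250 bases before to 50 after a gene's start) were found for 38 of the 46 genes. The CHR core TTTGAA, searched on both strands, was in 29 of the 38 (76.3%), against 20.2% of the 27025 genes with such a window. The CCAAT box, also on both strands, was in 31 (81.6%), against 41.1% of all genes, and both motifs were in 27 (71.1%), against 8.97%. The variant TTTAAA, which reads the same on both strands, was in 7 (18.4%), close to the 14.9% of all genes. A match describes the letters in the window and does not show that a factor binds there.

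The following windows run from 150 bases before the start to 25 bases from it, on the gene's own strand, 5′ to 3′, with TTTGAA and the CCAAT box of either strand in capitals. Those of Ccnb2 (chr9:70421530-70421704, minus strand), Cenpf (chr1:189688062-189688236, minus strand), Kif23 (chr9:61946775-61946949, minus strand), Ect2 (chr3:27153830-27154004, minus strand), Mki67 (chr7:135716355-135716529, minus strand) and Cdc25b (chr2:131186798-131186972, plus strand) are given because these genes differed between DNMAML and ICN1 cells in both treatments. Cdc20 (chr4:118437319-118437493, minus strand) is given because it holds both motifs and was not called. Nusap1 (chr2:119618148-119618322, plus strand) is given because it was called with neither motif in the window.
Ccnb2: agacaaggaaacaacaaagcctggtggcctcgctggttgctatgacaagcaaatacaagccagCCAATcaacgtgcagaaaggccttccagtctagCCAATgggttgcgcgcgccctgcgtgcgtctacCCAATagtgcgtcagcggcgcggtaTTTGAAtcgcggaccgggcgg
Cenpf: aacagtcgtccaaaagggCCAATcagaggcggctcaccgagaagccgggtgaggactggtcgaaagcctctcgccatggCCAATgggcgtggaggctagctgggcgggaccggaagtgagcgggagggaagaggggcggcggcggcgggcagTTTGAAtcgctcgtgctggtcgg
Kif23: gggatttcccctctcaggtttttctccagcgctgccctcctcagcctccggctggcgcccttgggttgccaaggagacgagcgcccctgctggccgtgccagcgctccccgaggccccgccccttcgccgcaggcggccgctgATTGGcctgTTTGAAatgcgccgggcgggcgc
Ect2: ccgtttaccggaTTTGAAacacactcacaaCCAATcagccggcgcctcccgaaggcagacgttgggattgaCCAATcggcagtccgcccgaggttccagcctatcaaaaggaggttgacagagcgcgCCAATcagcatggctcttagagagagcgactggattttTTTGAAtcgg
Mki67: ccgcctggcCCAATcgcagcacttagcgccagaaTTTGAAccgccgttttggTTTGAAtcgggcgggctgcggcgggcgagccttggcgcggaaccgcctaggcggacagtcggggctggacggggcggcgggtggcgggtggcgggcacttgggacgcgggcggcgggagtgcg
Cdc25b: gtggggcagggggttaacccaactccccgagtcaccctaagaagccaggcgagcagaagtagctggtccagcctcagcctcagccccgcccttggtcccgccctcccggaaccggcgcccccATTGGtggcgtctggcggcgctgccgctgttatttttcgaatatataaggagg
Cdc20: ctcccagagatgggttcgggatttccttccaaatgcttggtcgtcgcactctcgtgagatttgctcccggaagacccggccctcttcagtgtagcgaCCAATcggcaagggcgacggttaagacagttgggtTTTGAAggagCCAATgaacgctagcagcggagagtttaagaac
Nusap1: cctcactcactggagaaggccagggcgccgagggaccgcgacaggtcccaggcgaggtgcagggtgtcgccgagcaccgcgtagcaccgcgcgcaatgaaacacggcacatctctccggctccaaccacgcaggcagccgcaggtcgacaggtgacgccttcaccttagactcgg
In Ccnb2, Cenpf and Kif23 the TTTGAA lies within the first bases of the transcript with at least 1 CCAAT box before it, in Kif23 on the opposite strand, and in Ect2 a pair of TTTGAA copies flanks 3 CCAAT boxes. In Mki67 both TTTGAA copies lie upstream of the start, and Cdc25b has a CCAAT box on the opposite strand and no TTTGAA.

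The 46 genes varied little and mostly together. The difference between the highest and the lowest of the 24 arrays was 0.82 at the median gene, from 0.37 for Ccna2, cyclin A2, to 1.31. Across the 24 arrays, the median correlation of a gene with the mean of the other 45 was 0.77, and 0.76 after each group's mean was taken out, which leaves only differences between replicates. These correlations are a description over 24 arrays, in which the replicate 3 arrays share a narrower distribution. Within groups Dlgap5, a protein that stabilizes spindle microtubules, followed the others most closely (r = 0.95), followed by Plk1 (0.91) and Kif2c (0.91), and 36 genes were over 0.5. Pttg1, which encodes securin, went the opposite way (r = -0.60), as did the condensin subunit Smc4 (-0.34) and the kinetochore motor Cenpe (-0.32), while Ccna2 was near 0 (-0.017).

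The mean deviation of the 46 genes from their own averages was lowest on the replicate 3 array in 8 of 8 groups. Single genes were lowest on replicate 3 in 240 of 368 pairs of gene and group (65.2%). The replicate 3 arrays also had narrower value distributions in 8 of 8 groups, with a standard deviation over all probe sets from 2.14 to 2.20 against 2.20 to 2.26 on the other arrays, and medians from 4.05 to 4.18 against 3.90 to 4.07. The G1/S genes, a list of 54 replication and S-phase genes, were lowest on replicate 3 in 8 of 8 groups too. The part of the array distribution in these levels was not tested. Counts are given below with the replicate number as a block where the numbers were taken as pairing samples and the block moved the count. They are also given without all replicate 3 arrays where calls were lost.

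The level of the genes differed by construct. The mean deviation of the 46 genes was 0.18 ± 0.12 in DNMAML-DMSO and 0.21 ± 0.09 in DNMAML-GSI (SD, n = 3 each), the highest of the 8 groups. It was 0.05 ± 0.14 in R1984A-DMSO, -0.01 ± 0.09 in R1984A-GSI and 0.02 ± 0.19 in MigR1-GSI. The lowest were MigR1-DMSO at -0.14 ± 0.13, ICN1-DMSO at -0.11 ± 0.11 and ICN1-GSI at -0.18 ± 0.11. Neighbours in this order differed by less than the larger of their SDs. Of the 46 genes, 41 had their highest group mean in a DNMAML group, and 41 had their lowest in MigR1-DMSO or an ICN1 group, 24 of them in ICN1-GSI.

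**Figure D1:**
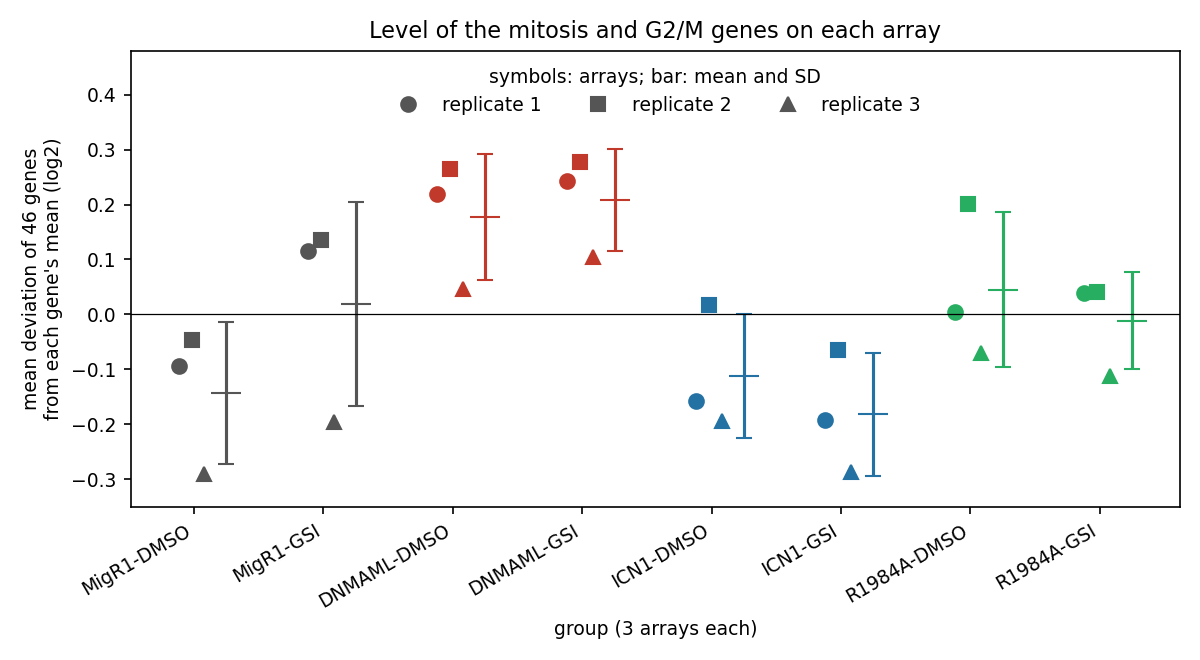
Mean deviation of the 46 mitosis and G2/M genes from each gene's mean over 24 arrays (y axis, log2), for each array of the 8 groups (x axis); symbols mark replicates 1 to 3 and bars give the mean and SD of 3 arrays. The 6 DNMAML arrays lie above 0, and replicate 3 is the lowest array of every group.

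**Figure D2:**
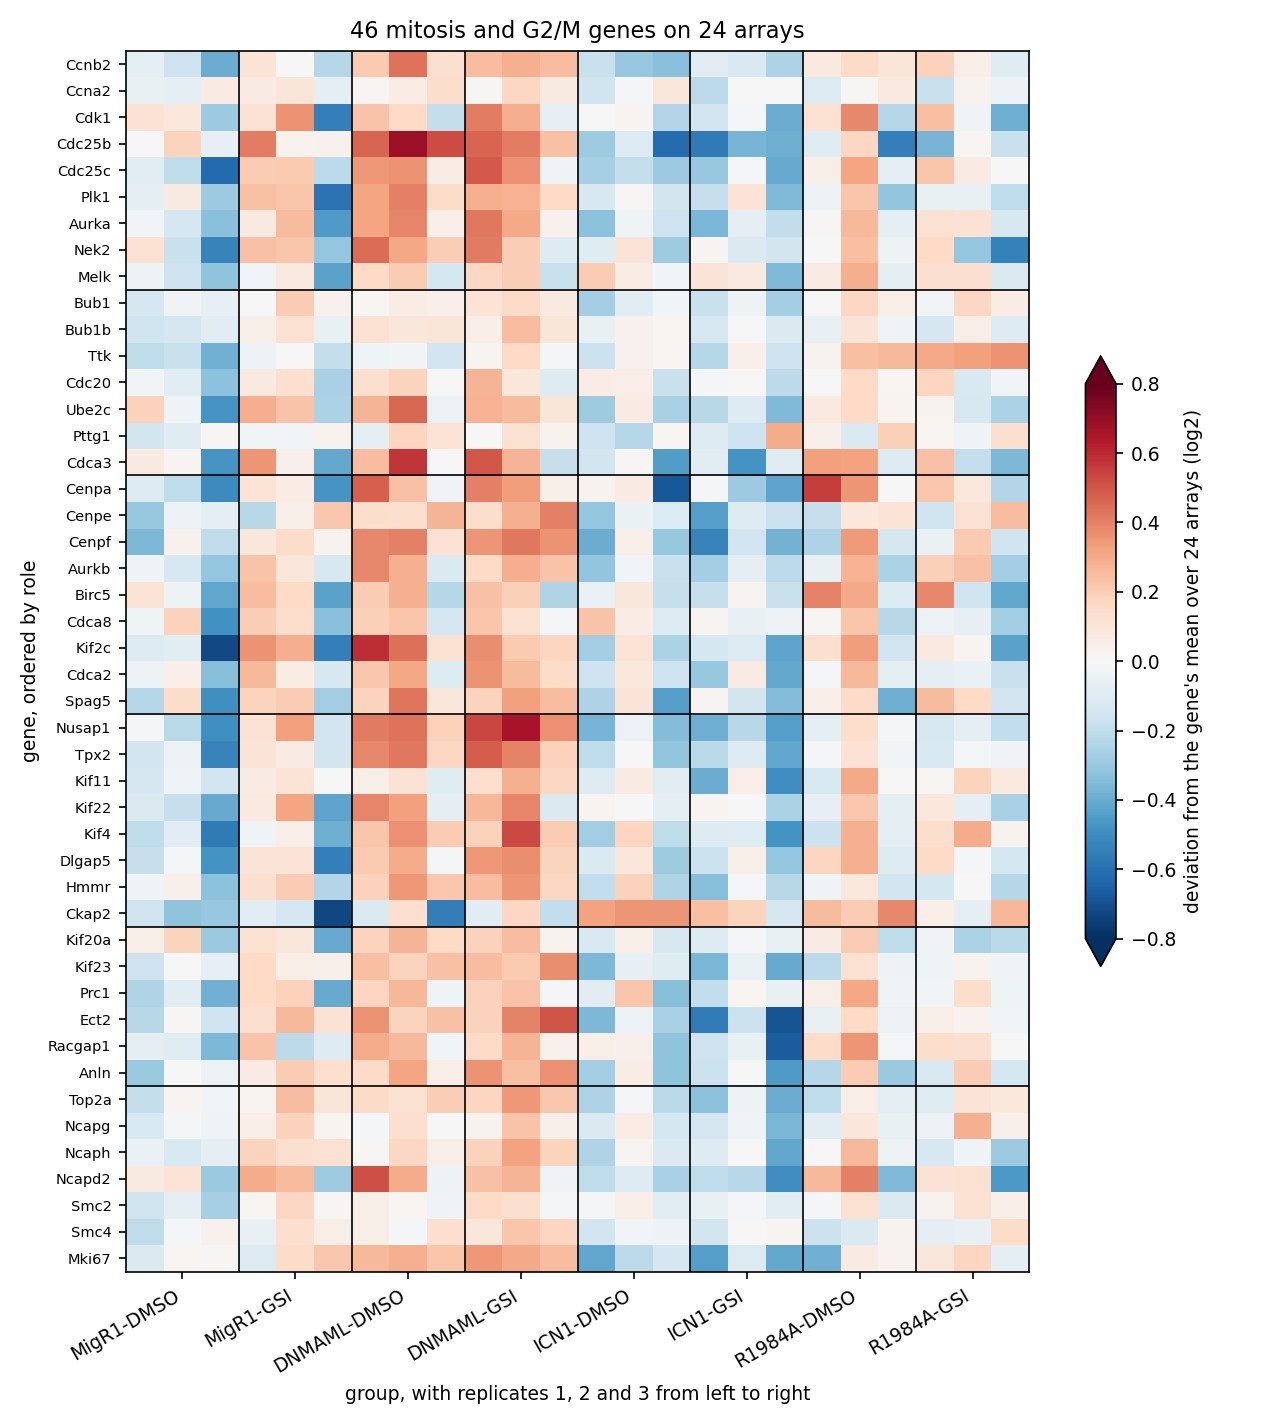
Deviation of each of the 46 genes (rows, ordered by role, lines between roles) from its mean over 24 arrays, on each array (columns, 3 per group, replicates 1 to 3 from left to right); red is higher and blue lower, on a log2 scale with colours capped at 0.8 either way. Most rows are red in the DNMAML columns and blue in the ICN1 columns, apart from ICN1-DMSO replicate 2, with a mean deviation of 0.017. Ttk is reddest in R1984A-GSI, and Ckap2 is red in the R1984A-DMSO columns and in the ICN1 columns except ICN1-GSI replicate 3.

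The widest contrast lay between cells with the Notch complex disabled and cells with active Notch1 supplied. DNMAML cells had higher levels of 27 of the 46 genes than ICN1 cells, averaged over both treatments, and 0 were lower. A gene was called when the two-sided limma test, fitted to all 24 arrays, stayed under 0.05 after Benjamini-Hochberg adjustment across the 19938 genes. Of all genes, 6.51% were called higher and 6.13% lower in this comparison (12.6% in either direction). The median difference of the 46 was 0.37 on the log2 scale, a fold of 1.29, against 0.00 for all genes, and 45 of 46 differences were positive, where 51.4% of all genes were. In 17 genes the 6 DNMAML arrays all lay above the 6 ICN1 arrays, as in 4.57% of all genes, and in 0 they all lay below, as in 4.28%.

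The checks of the labels moved the other way. Nrarp, a direct Notch target, differed by -2.24 (SE 0.075, adjusted p = 1.27e-15) between DNMAML and ICN1 cells, Myc by -1.93 (SE 0.15, adjusted p = 1.37e-09) and Notch1, whose probe set may read the construct, by -1.51 (SE 0.09, adjusted p = 2.58e-11). Mitotic genes were thus higher where Myc was lower in this comparison.

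Among the genes that switch on mitosis, 5 of 9 were higher in DNMAML than in ICN1 cells. Cdc25b, a phosphatase that activates cyclin and Cdk complexes at the entry into mitosis, measured 6.00, 6.21 and 6.05 in DNMAML-DMSO and 5.99, 5.94 and 5.76 in DNMAML-GSI. It measured 5.24, 5.42 and 4.91 in ICN1-DMSO and 4.96, 5.16 and 5.14 in ICN1-GSI. The lowest DNMAML array was above the highest ICN1 array, and the difference of 0.85 (SE 0.11, adjusted p = 6.12e-06), 1.81-fold, was the largest of the 46. Ccnb2, the cyclin B2 subunit of the mitotic kinase, measured 9.24, 9.47 and 9.16 in DNMAML-DMSO and 9.28, 9.31 and 9.28 in DNMAML-GSI. In ICN1 cells Ccnb2 measured 8.85, 8.73 and 8.70 in ICN1-DMSO and 8.94, 8.91 and 8.78 in ICN1-GSI, all below the DNMAML arrays, a difference of 0.47 (SE 0.079, adjusted p = 0.000144). Cdc25c, the other Cdc25 phosphatase of this group, was higher by 0.51 (SE 0.11, adjusted p = 0.00241), the spindle pole kinase Aurka by 0.44 (SE 0.11, adjusted p = 0.00795) and the polo-like kinase Plk1 by 0.38 (SE 0.12, adjusted p = 0.0439). Cdk1 itself, at 0.27 (95% interval -0.037 to 0.57, adjusted p = 0.335), the centrosome kinase Nek2, at 0.33 (95% interval 0.057 to 0.60, adjusted p = 0.123), Ccna2, at 0.13 (95% interval -0.022 to 0.27, adjusted p = 0.358), and the kinase Melk, at 0.058 (95% interval -0.17 to 0.28, adjusted p = 0.876), were not called.

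Of the spindle checkpoint and anaphase control genes 2 of 7 were higher, with a median of 0.16, and 0 of these calls held under every alternative. The checkpoint kinase Bub1 was higher by 0.22 (SE 0.069, adjusted p = 0.0358), and Ube2c, the enzyme that passes ubiquitin to targets of the anaphase promoting complex, by 0.41 (SE 0.11, adjusted p = 0.0173). Not called were the checkpoint genes Bub1b, at 0.16 (95% interval 0.027 to 0.29, adjusted p = 0.126), and Ttk, at 0.073 (95% interval -0.078 to 0.22, adjusted p = 0.704), and the complex's activator Cdc20, at 0.14 (95% interval -0.044 to 0.33, adjusted p = 0.437). Pttg1 was at 0.12 (95% interval -0.052 to 0.29, adjusted p = 0.502) and Cdca3, a trigger of mitotic entry, at 0.44 (95% interval 0.12 to 0.76, adjusted p = 0.0644), the latter as large a difference as those of called genes with a wider interval.

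Of the genes of the kinetochore, the centromere and the chromosomal passenger complex 7 of 9 were called. Cenpe and Cenpf, 2 of these 7, kept the call under all 21 alternatives, against 4 of the 5 called genes that switch on mitosis and 4 of the 5 of spindle assembly. Cenpf, a large kinetochore protein, measured 8.29, 8.31 and 8.02 in DNMAML-DMSO and 8.26, 8.33 and 8.26 in DNMAML-GSI. In ICN1 cells Cenpf measured 7.51, 7.95 and 7.60 in ICN1-DMSO and 7.37, 7.75 and 7.53 in ICN1-GSI, which do not reach the DNMAML values, and the difference was 0.63 (SE 0.11, adjusted p = 0.000177). Kif2c, a kinesin that takes microtubules apart at the centromere, was higher by 0.50 (SE 0.15, adjusted p = 0.0282), the centromeric histone Cenpa by 0.46 (SE 0.14, adjusted p = 0.0324) and the kinetochore motor Cenpe by 0.43 (SE 0.095, adjusted p = 0.00283). Spag5 at 0.42 (SE 0.13), Aurkb, the kinase of the passenger complex, at 0.38 (SE 0.11), and Cdca2, which brings a phosphatase to chromatin, at 0.34 (SE 0.10), were also called, with adjusted p = 0.0305, 0.0202 and 0.0266 in limma. The other passenger subunits, survivin Birc5, at 0.16 (95% interval -0.15 to 0.46, adjusted p = 0.678), and borealin Cdca8, at 0.086 (95% interval -0.15 to 0.32, adjusted p = 0.806), were not called.

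Of the 8 genes of spindle assembly, 5 were higher, and the group held the lowest difference of the 46. Nusap1, which binds and bundles spindle microtubules near chromosomes, measured 8.45, 8.47 and 8.22 in DNMAML-DMSO and 8.57, 8.69 and 8.40 in DNMAML-GSI. It measured 7.66, 7.99 and 7.69 in ICN1-DMSO and 7.64, 7.81 and 7.59 in ICN1-GSI, so the ranges of the 2 constructs did not meet. The difference was 0.74 (SE 0.097, adjusted p = 5.27e-06), 1.67-fold. Tpx2, the activator of Aurka on the spindle, was higher by 0.55 (SE 0.092, adjusted p = 0.000131), the chromosome-bound kinesin Kif4 by 0.45 (SE 0.11, adjusted p = 0.00804), Hmmr by 0.39 (SE 0.097, adjusted p = 0.00692) and Dlgap5 by 0.36 (SE 0.12, adjusted p = 0.0446). The bipolar kinesin Kif11, at 0.27 (95% interval 0.083 to 0.45, adjusted p = 0.0509), fell just short, and the chromokinesin Kif22 was at 0.25 (95% interval 0.00085 to 0.49, adjusted p = 0.238). Ckap2, a microtubule-associated protein, was the 1 gene with a negative difference, at -0.33 (95% interval -0.57 to -0.086, adjusted p = 0.0733).

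The midzone and cytokinesis genes were higher in 4 of 6 cases. Ect2, which activates the GTPase that builds the contractile ring, measured 9.40, 9.22 and 9.28 in DNMAML-DMSO and 9.23, 9.44 and 9.55 in DNMAML-GSI. In ICN1 cells Ect2 measured 8.68, 8.999 and 8.78 in ICN1-DMSO and 8.49, 8.87 and 8.35 in ICN1-GSI, below every DNMAML array, a difference of 0.66 (SE 0.089, adjusted p = 7.94e-06), 1.58-fold. The partners that form centralspindlin were both higher, Kif23 by 0.47 (SE 0.078, adjusted p = 0.000123) and Racgap1 by 0.35 (SE 0.11, adjusted p = 0.0327), as was the ring scaffold Anln, by 0.44 (SE 0.10, adjusted p = 0.00403). The midzone bundler Prc1, at 0.21 (95% interval -0.015 to 0.43, adjusted p = 0.291), and the midzone kinesin Kif20a, at 0.24 (95% interval 0.036 to 0.45, adjusted p = 0.138), were not called.

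Among the genes of chromosome structure, 4 of 7 were higher. Mki67, the proliferation marker Ki-67 that coats mitotic chromosomes, measured 9.24, 9.27 and 9.20 in DNMAML-DMSO and 9.33, 9.29 and 9.22 in DNMAML-GSI. In ICN1 cells Mki67 measured 8.56, 8.77 and 8.84 in ICN1-DMSO and 8.54, 8.87 and 8.57 in ICN1-GSI, with a gap between the constructs and a difference of 0.57 (SE 0.089, adjusted p = 6e-05). Top2a, the topoisomerase that untangles sister chromatids, was higher by 0.41 (SE 0.079, adjusted p = 0.000671), and the condensin subunits Ncapd2 by 0.46 (SE 0.14, adjusted p = 0.0311) and Ncaph by 0.29 (SE 0.08, adjusted p = 0.0151). The third subunit of that kind, Ncapg, was at 0.19 (95% interval 0.032 to 0.36, adjusted p = 0.127), and the condensin ATPases Smc2 and Smc4 at 0.086 (95% interval -0.05 to 0.22, adjusted p = 0.567) and 0.17 (95% interval 0.018 to 0.31, adjusted p = 0.164), none of them called.

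**Figure D3:**
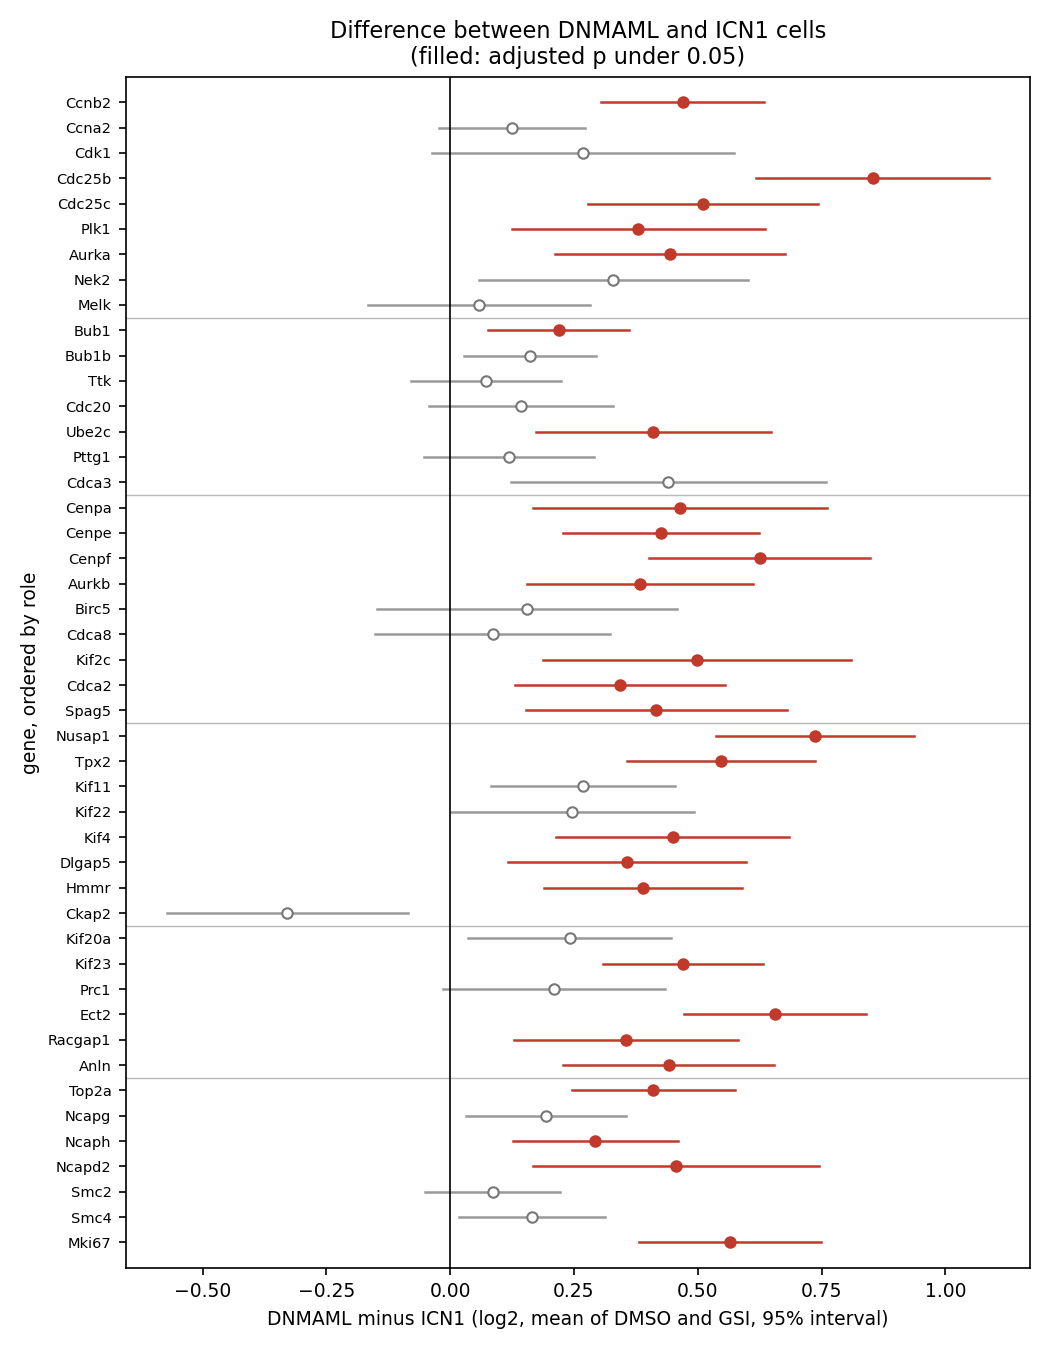
Difference between DNMAML and ICN1 cells for each of the 46 genes (x axis, log2, mean of DMSO and GSI, 6 arrays each), with 95% intervals; filled points have an adjusted p under 0.05, and lines separate the roles. The 27 called genes lie to the right of 0, from Bub1 at 0.22 to Cdc25b at 0.85, and Ckap2 lies at -0.33.

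How many genes were called depended on the arrays and the scaling. In the alternatives run 0 of the 27 differences changed sign, which is a weak check of differences already called. Leaving out 1 array gave 17 to 28 called genes, with the lowest count without DNMAML-DMSO replicate 2 and without ICN1-DMSO replicate 1 (17 each). Centring each array on its median gave 15, all higher, with a median difference of 0.39. Array weights called 31 higher and 1 lower, and leaving out dim genes 29 higher and 1 lower. For median centring, array weights, dim genes left out and single arrays left out, the share of all genes called is not given here. These counts are therefore not set against a change over all genes. Without all replicate 3 arrays 25 were called, where 11.7% of all genes were. For 14 genes the call held under each of 21 alternatives, namely Ccnb2, Cdc25b, Cdc25c, Aurka, Cenpe, Cenpf, Nusap1, Tpx2, Kif4, Hmmr, Kif23, Ect2, Top2a and Mki67. The other 13 lost it under at least 1, Plk1 in 10 of the 12 fits with 1 array left out.

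The DMSO and the GSI arrays, which have none in common, were also compared apart, in comparisons added after the data were seen. Both came from the fit of all 24 arrays, which shares its estimate of the spread of each gene. The lists of calls are therefore not independent of each other. In DMSO 8 genes were higher in DNMAML than in ICN1 cells and 0 lower, where 3.22% of all genes were higher, and in GSI 14 were higher and 0 lower, where 3.78% were. The 8 genes called in DMSO were all among the 14 called in GSI, which is 100% of the first list and 57.1% of the second. They were Ccnb2, Cdc25b, Cenpf, Nusap1, Tpx2, Kif23, Ect2 and Mki67. Cenpe, Kif11, Kif4, Anln, Top2a and Ncaph were called in GSI and not in DMSO, and their difference between treatments was not tested for this pair of constructs. In DMSO the groups did not overlap for 22 genes higher (11.1% of all genes) and 1 lower, Ckap2 (10.8%), and in GSI for 33 higher (9.74%) and 0 lower (8.91%).

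In DMSO the replicate numbers were taken as pairing the samples. Deviations of same-numbered arrays from their group means correlated at 0.12, 0.11 and 0.37, against a cut-off of 0.1. With the replicate as a block 23 genes were higher and 1 lower in DNMAML-DMSO than in ICN1-DMSO, where 10.5% of all genes were called. The lower gene was Ckap2, at -0.52 with an adjusted p = 0.0267 in limma's blocked fit. Leaving out 1 array gave 3 to 8 called genes in DMSO, with 3 without ICN1-DMSO replicate 1 and 4 without ICN1-DMSO replicate 3 or DNMAML-DMSO replicate 1. In GSI it gave 9 to 16, with 9 without DNMAML-GSI replicate 2, DNMAML-GSI replicate 3 or ICN1-GSI replicate 3. Without all replicate 3 arrays 10 genes were called in DMSO (5.57% of all genes), with Cenpf, Kif23 and Ect2 lost, and 11 in GSI (6.25%), with Ccnb2, Cenpe, Kif11, Kif4, Kif23, Anln, Top2a and Ncaph lost.

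**Figure D4:**
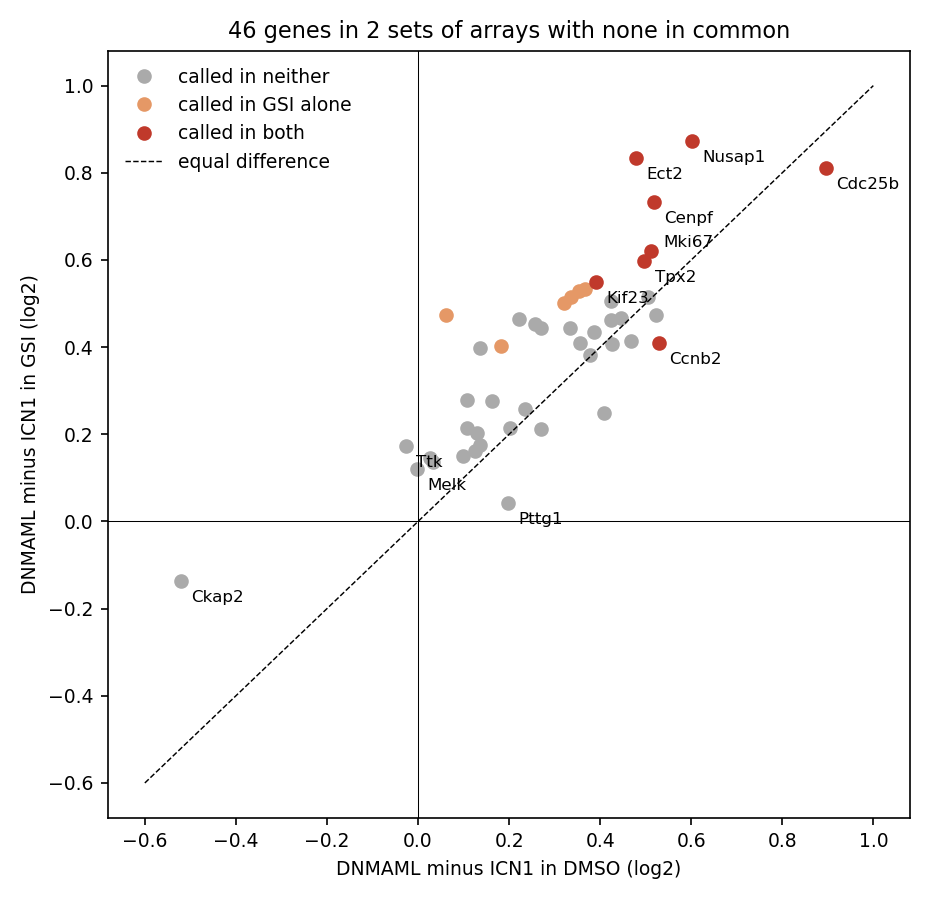
Difference between DNMAML and ICN1 cells in DMSO (x axis) and in GSI (y axis), in log2, for each of the 46 genes; red points were called in both, orange points in GSI alone, grey points in neither, and the dashed line marks equal differences. Nusap1, Cdc25b and Ect2 lie farthest from the origin on the upper right, and Ckap2 is the 1 gene with a negative difference in both.

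Measured against the empty vector, DNMAML cells had 3 genes called higher in DMSO and 0 called in GSI. In DMSO, Ccnb2 was higher by 0.47 (SE 0.11, adjusted p = 0.0256), Nusap1 by 0.59 (SE 0.14, adjusted p = 0.023) and Tpx2 by 0.57 (SE 0.13, adjusted p = 0.0204), and 0 genes were lower. These 3 calls stand against 1.94% of all genes called, 1.10% higher and 0.833% lower. All 46 differences were positive, with a median of 0.31, where 49.0% of all genes were positive, and in 30 genes the 3 DNMAML-DMSO arrays lay above the 3 MigR1-DMSO arrays (8.31% of all genes). Tpx2 measured 8.26, 8.38 and 7.88 in MigR1-DMSO and 8.80, 8.84 and 8.59 in DNMAML-DMSO, with no overlap. Kif2c had the largest difference of the 46 and was not called, at 0.69 (95% interval 0.25 to 1.13, adjusted p = 0.123).

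Within replicate numbers this comparison was even. The mean over the 46 genes was higher in DNMAML-DMSO than in MigR1-DMSO by 0.31 in replicate 1, 0.31 in replicate 2 and 0.34 in replicate 3. The numbers were taken as pairing these samples (lowest r 0.114, cut-off 0.1). The blocked fit called 18 genes, all higher, where 4.68% of all genes were called. Its calls included Cdc25c (adjusted p = 0.00215 in limma), Kif2c (0.00218), Kif4 (0.00221) and Cenpa (0.00259). Without the block no more than 3 genes were called when 1 array was left out, with 1 without MigR1-DMSO replicate 2 and 0 without MigR1-DMSO replicate 3 or DNMAML-DMSO replicates 1 or 2. With every replicate 3 array left out 2 were called (1.59% of all genes), and Ccnb2 and Nusap1 were not among them.

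Between DNMAML and MigR1 cells in GSI limma called 0 of the 46 genes, where 0.191% of all genes were called, and 0.0853% were called lower. Unadjusted p-values were under 0.05 for 5 members, and for 6.26% of all genes. The 46 differences were again positive, against 49.2% of all genes, with a median of 0.19. Nusap1, the nearest to a call without a block, was at 0.42 (95% interval 0.14 to 0.71, adjusted p = 0.405), and with the replicate block, which applied here, it was the 1 gene called (adjusted p = 0.0481; 0.818% of all genes). Averaged over both treatments 4 genes were higher, Ccnb2 by 0.38 (SE 0.079), Nusap1 by 0.50 (SE 0.097), Tpx2 by 0.46 (SE 0.092) and Kif4 by 0.49 (SE 0.11), with 3.18% of all genes called, and 23 with the block, where 7.14% were called. Leaving out 1 array gave 3 to 6. With every replicate 3 array left out 4 were called (2.55% of all genes), and Kif4 was not among them.

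GSI by itself gave no called change among the 46 genes in any construct. In MigR1 cells limma called 0, where 0.166% of all genes were called. Cdc25c, Nusap1, Ect2 and Smc2 had unadjusted p-values under 0.05, which makes 4 members, and 4.88% of all genes had them. Of the 46 differences 44 were positive, where 51.5% of all genes were, with a median of 0.16 and the smallest adjusted p at 0.902. Nusap1 measured 8.02, 7.82 and 7.54 in MigR1-DMSO and 8.15, 8.36 and 7.88 in MigR1-GSI, which overlap. The mean over the 46 genes was higher in MigR1-GSI by 0.21, 0.18 and 0.094 in replicates 1, 2 and 3.

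In the other constructs the medians of the GSI difference were close to 0. They were 0.030 in DNMAML cells (0.00502% of all genes called), -0.067 in ICN1 cells (0% called) and -0.059 in R1984A cells (0% called), and limma called 0 of the 46 in each. By unadjusted p under 0.05 it was also 0 in each, where 2.54%, 2.37% and 3.18% of all genes were under it in DNMAML, ICN1 and R1984A cells. In DNMAML cells 32 differences were positive, against 50.4% of all genes. In ICN1 cells 7 were positive and 39 negative, where 48.6% of all genes were positive, and the mean over the 46 genes differed by -0.035, -0.081 and -0.093 in replicates 1, 2 and 3. In R1984A cells 16 were positive and 30 negative, where 48.5% of all genes were positive. Averaged over the 4 constructs the median was 0.022. There limma called 0 members, where 0.0301% of all genes were called, and 0 were under 0.05 before adjustment, where 4.90% were. Tests of whether the GSI difference of a construct departed from that of MigR1 cells, which all share the MigR1 arrays, called 0 genes for DNMAML, ICN1 and R1984A. Their medians were -0.13, -0.24 and -0.17, with 0, 3 and 2 genes at an unadjusted p under 0.05, where 3.11%, 3.19% and 3.52% of all genes were. The shares of all genes called after adjustment were 0.00502%, 0.0150% and 0.0251%.

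Against the empty vector, ICN1 cells had 2 genes lower in GSI and 0 called in DMSO. In GSI the difference of Ect2 was -0.64 (SE 0.13, adjusted p = 0.00375) and that of Cdc25b -0.60 (SE 0.16, adjusted p = 0.0474), where 2.35% of all genes were called (1.07% lower, 1.28% higher), and 42 of 46 differences were negative, with a median of -0.20. Ect2 measured 9.17, 9.30 and 9.16 in MigR1-GSI, all above its ICN1-GSI arrays. Ect2 kept its call in 6 of 6 fits with 1 array left out and lost it without all replicate 3 arrays and in the fit of only the groups compared, with adjusted p up to 0.147 in limma. Without all replicate 3 arrays 2 genes were called, where 1.84% of all genes were. Cdc25b lost its call in 6 of 6 fits with 1 array left out, and the count ranged from 1 (without MigR1-GSI replicate 1 or 2, or ICN1-GSI replicate 1 or 3) to 4 (without ICN1-GSI replicate 2). For DMSO limma called 0 of 46, where 0.727% of all genes were called, and 2 members and 6.09% of all genes were under 0.05 before adjustment. There 22 differences were positive, against 49.4% of all genes, with a median of -0.0028. The difference between these 2 results is the interaction above, which called 0 genes.

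Ckap2 was the exception in ICN1 cells. It measured 7.88, 7.91 and 7.91 in ICN1-DMSO and 7.80, 7.73 and 7.42 in ICN1-GSI. In the empty vector Ckap2 measured 7.40, 7.23 and 7.25 in MigR1-DMSO and 7.47, 7.42 and 6.83 in MigR1-GSI, where the third GSI array was the lowest of the 24. The ICN1 arrays were higher in DMSO by 0.60 (95% interval 0.26 to 0.95, adjusted p = 0.124), called in the blocked fit, which applied here (adjusted p = 0.0427; 1.49% of all genes). Averaged over both treatments Ckap2 was higher by 0.51 (SE 0.12, adjusted p = 0.0117), while Cdc25b was lower, at -0.49 (SE 0.11, adjusted p = 0.0126), and Ect2 also, at -0.37 (SE 0.089, adjusted p = 0.0165). Of all genes 3.43% were called. Without ICN1-GSI replicate 2 this comparison called 6 members. It called 3 without all replicate 3 arrays (2.67% of all genes), and Ect2 was not among them.

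Between R1984A cells and the empty vector limma called 1 of the 46 genes in each treatment, the checkpoint gene Ttk. One call is too few to set apart from the shares of all genes given below. Ttk, the kinase that starts the spindle checkpoint, measured 8.38, 8.58 and 8.60 in R1984A-DMSO and 8.65, 8.68 and 8.70 in R1984A-GSI. It measured 8.14, 8.17 and 7.96 in MigR1-DMSO and 8.30, 8.34 and 8.15 in MigR1-GSI, all lower than its R1984A counterparts. The difference was 0.43 (SE 0.10, adjusted p = 0.0422) in DMSO, where 0.978% of all genes were called and 0.868% were called higher, and 0.41 (SE 0.10, adjusted p = 0.0486) in GSI, where 1.36% were called and 1.04% were called higher. Before adjustment 9 members were under 0.05 in DMSO, against 6.66% of all genes, and 42 differences were positive, against 47.8%. The median difference of the 46 genes was 0.16 in DMSO and -0.047 in GSI. In GSI the mean over the 46 genes differed by -0.077, -0.095 and 0.083 in replicates 1, 2 and 3. Averaged over both treatments the Ttk difference was 0.42 (SE 0.073, adjusted p = 0.000816), and the call held in 12 of 12 fits with 1 array left out, but not without all replicate 3 arrays (adjusted p = 0.0938 in limma). The single-treatment calls were lost in 5 of 6 such fits in DMSO, all but that without R1984A-DMSO replicate 1, and in 6 of 6 in GSI. Both were also lost without all replicate 3 arrays, with median centring and with a second quantile normalization. In DMSO the fit without replicate 3 called 1 gene other than Ttk, where 0.702% of all genes were called. Ckap2 was also higher over both treatments, by 0.47 (SE 0.12, adjusted p = 0.0314), with 2.18% of all genes called, and lost its call in 7 of 12 fits, those without MigR1-DMSO replicates 2 or 3, MigR1-GSI replicate 3, R1984A-DMSO replicates 1 or 3 and R1984A-GSI replicates 1 or 3. In DMSO the blocked fit, which applied here, added Cenpa (adjusted p = 0.0011; 1.84% of all genes called).

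ICN1 and R1984A, which differ in the residue that dimerization needs, were compared directly. In GSI Ttk was lower in ICN1 cells, at -0.45 (SE 0.10, adjusted p = 0.0313), with 1.10% of all genes called. Of the 46 differences 5 were positive, against 49.7% of all genes, and 13 were under 0.05 before adjustment, against 8.88%. Ttk lost this call in 5 of 6 fits with 1 array left out, all but that without ICN1-GSI replicate 2, where 3 genes were called. For DMSO limma called 0, where 0.963% of all genes were called and 0.702% were called lower, and 4 members and 7.07% of all genes were under 0.05 before adjustment. There 3 differences were positive, against 50.2% of all genes. The blocked fit, which applied in DMSO, called Ccnb2 (adjusted p = 0.0256) and Cenpa (0.00451) lower in ICN1 cells, where 2.29% of all genes were called.

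Averaged over both treatments, a comparison added after the data were seen, 3 genes were lower in ICN1 than in R1984A cells, Ect2 at -0.37 (SE 0.089, adjusted p = 0.02), Ttk at -0.33 (SE 0.073, adjusted p = 0.00877) and Ccnb2 at -0.29 (SE 0.079, adjusted p = 0.0459). Of all genes 3.06% were called, and 43 of 46 differences were negative, with a median of -0.18. Ccnb2 lost its call in 11 of 12 fits with 1 array left out and Ect2 in 5, while Ttk kept it in 12 of 12. Without all replicate 3 arrays 1 gene was called, where 2.48% of all genes were, and it was none of these 3. Leaving out 1 array took the count to 1 without ICN1-DMSO replicates 1 or 3, ICN1-GSI replicates 1 or 3, or R1984A-DMSO replicate 2. Ttk thus had its highest values in R1984A cells, with group means of 8.52 ± 0.13 and 8.68 ± 0.028, against 8.28 ± 0.072 and 8.40 ± 0.091 in DNMAML cells (SD, n = 3).

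**Figure D5:**
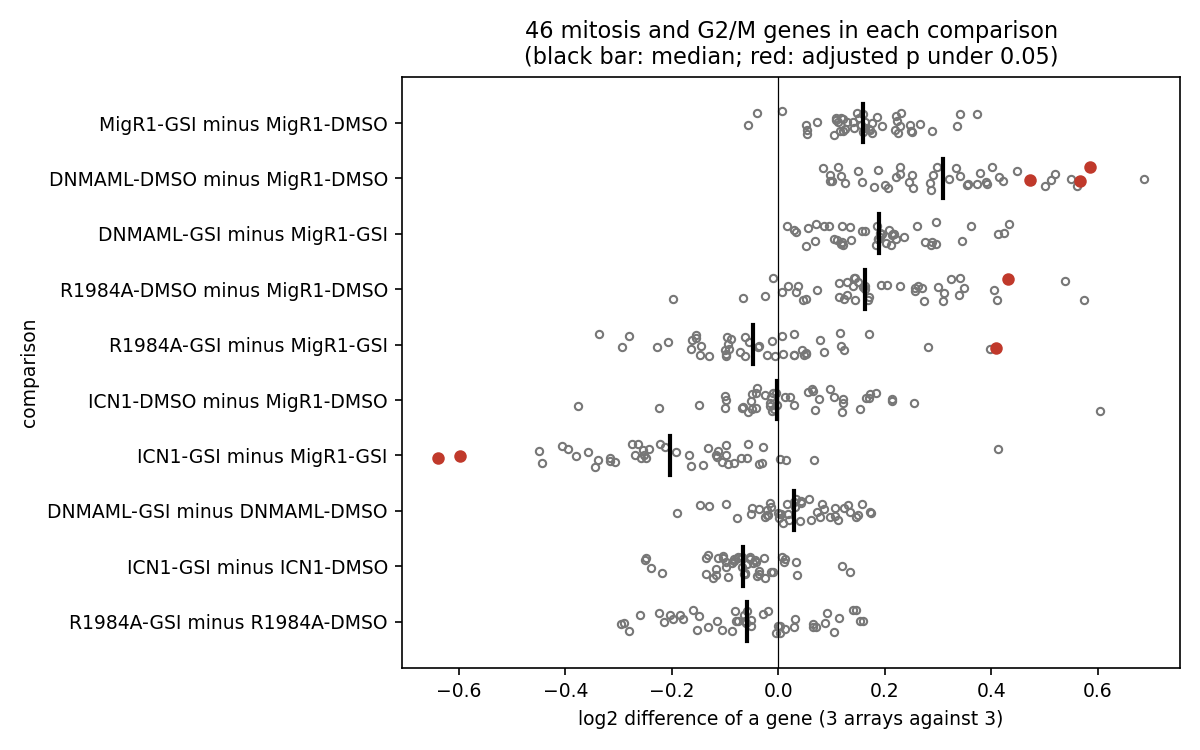
Log2 differences of the 46 genes (points) in 10 comparisons of 3 arrays with 3; black bars mark medians and red points an adjusted p under 0.05. The points lie to the right of 0 for DNMAML over MigR1 in both treatments, to the left for ICN1 under MigR1 in GSI, and around 0 for GSI within DNMAML, ICN1 and R1984A cells.

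Other genes of the cell cycle put these values in context, with lists chosen by name and with earlier results of these data known. Of 62 further mitotic genes, 19 were higher and 2 lower in DNMAML than in ICN1 cells, averaged over both treatments, with a median of 0.21, where 6.51% of all genes were higher and 6.13% lower. Cenpn, a reader of centromeric chromatin, was higher by 0.93 (SE 0.20, adjusted p = 0.00235), the kinesin Kif18b by 0.78 (SE 0.13, adjusted p = 7.83e-05) and the kinetochore gene Ska2 by 0.51 (SE 0.091, adjusted p = 0.000281), while the ubiquitin ligase G2e3 was lower at -0.67 (SE 0.095, adjusted p = 1.5e-05). Of the 54 genes of G1 and S phase 1 was higher and 6 were lower, with a median of -0.07, a share of calls near the 12.6% of all genes. The G1 kinase Cdk6 was the higher one at 0.47 (SE 0.077, adjusted p = 8.42e-05), and the exonuclease Exo1 at -0.47 (SE 0.15), the DNA polymerase subunit Pold1 at -0.40 (SE 0.071) and the replication initiator Mcm10 at -0.39 (SE 0.12) were among the lower ones.

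Regulators of this programme and brakes of the cell cycle went both ways, beside the 6.51% of all genes higher and 6.13% lower. Of 39 regulators 3 were higher, with Rbl2, the p130 subunit of DREAM, at 0.81 (SE 0.11, adjusted p = 1.03e-05), Rb1, the retinoblastoma protein, at 0.55 (SE 0.12, adjusted p = 0.00167) and the E2F partner Tfdp2 at 0.53 (SE 0.13). A further 4 were lower, E2f5 at -0.51 (SE 0.12) among them. Mybl2 and Foxm1, the genes of B-Myb and FoxM1, were among the 39 and were not called. Of 21 brakes 5 were higher, Ccng2, a cyclin of arrested cells, at 1.19 (SE 0.12, adjusted p = 6.11e-08), the stress gene Gadd45a at 1.13 (SE 0.076, adjusted p = 1.73e-10) and the Cdk inhibitor Cdkn2c at 0.79 (SE 0.12, adjusted p = 4.74e-05) among them, and 2 were lower, with Gadd45g at -1.43 (SE 0.15, adjusted p = 1.67e-07). DNMAML cells thus had higher levels of mitotic genes and of several cell-cycle inhibitors at once. Against MigR1 in DMSO limma called 3 of the 46 genes (0 to 3 with 1 array left out), beside 1.10% of all genes higher and 0.833% lower. The brakes called there were Ccng2, higher by 1.17 (SE 0.16, adjusted p = 0.00022), Gadd45a by 0.62 (SE 0.11, adjusted p = 0.00184) and the Cdk inhibitor Cdkn1b by 0.62 (SE 0.13, adjusted p = 0.00786). Against MigR1 in GSI no brake was called, and 0 of the 46 genes were, where 0.191% of all genes were called.

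Genes outside the list were ranked by how closely they followed the members' median over the 24 arrays. Among 18168 genes, the most alike were Capns1, a calpain subunit (r = 0.91), Anxa5, an annexin (0.91), Inpp5k (0.90), Ppil2 (0.90) and Arhgap19 (0.90). The folate carrier Slc19a1 (-0.89), the RNA-binding gene Hnrnpdl (-0.85), Hrh2 (-0.82), Dnajb6 (-0.81) and Emx1 (-0.81) were the least alike. These values are a description over the same 24 arrays, with no test.

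Calls between DNMAML and ICN1 cells occurred with and without each promoter motif. Of the 29 genes with TTTGAA in the RefSeq window, 17 were called between DNMAML and ICN1 cells, with a median of 0.41, and of the 9 without it 5 were called, with a median of 0.29. With CCAAT 18 of 31 were called, and without it 4 of 7. With TTTAAA 6 of 7 were called, with a median of 0.44, and without it 16 of 31, with a median of 0.33. Cdc20 and Ttk hold both motifs and were not called, and Nusap1 holds neither in the window shown above and was among the genes with the largest difference. No test was made of these splits.

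The labelled cell type was checked against marker genes. Of 15 T-cell markers, 11 had means above the highest array median, Cd3e (10.40) and Lat (10.31) among them, while the means of Cd4 (3.97), Cd8a (3.87), Cd8b1 (3.52) and Cd5 (4.11) lay below it. On single arrays Cd4 reached 5.16 and Cd5 4.55. Of the B-cell, myeloid and natural killer markers 0 of 7, 0 of 9 and 0 of 5 were above it. The erythroid and megakaryocyte list had 2 of 5 above and group means from 3.70 to 3.84, and the stroma and epithelium list 4 of 9 and group means from 3.98 to 4.20. Pecam1, of the last list, was higher in DNMAML than in ICN1 cells by 1.76 (SE 0.13, adjusted p = 5.12e-10), the myeloid marker Lyz2 by 0.46 (SE 0.14, adjusted p = 0.0269), and the B-cell marker Cd22 was lower, at -0.49 (SE 0.12, adjusted p = 0.00538). In this comparison 6.51% of all genes were called higher and 6.13% lower. Of the 15 T-cell markers 6 were higher and 2 lower. Cd4 at 1.26 (SE 0.11, adjusted p = 7.24e-09), Cd247 at 1.21 (SE 0.12, adjusted p = 1.39e-07), Thy1 at 1.01 (SE 0.10, adjusted p = 1.46e-07) and Ptprc at 0.90 (SE 0.086, adjusted p = 4.2e-08) were the largest. Bcl11b and Lat were also higher, and Cd28 and Cd2 were lower. The part of these markers in the differences of the mitotic genes was not tested. Arrays of 1 group correlated with r of 0.982 to 0.994 across the 19938 genes, and 0 pairs were identical.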

How the data were processed

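RNA was hybridised to 24 Affymetrix Mouse Gene 1.0 ST arrays. The authors' deposited values are on a log2 scale, read from their range of 1.28 to 13.47. Per the submitters' processing notes, oligo and limma were used. The steps of background correction, normalization and summarization are not given in the sources used here. Values were used without further scaling. Of 35556 probe sets, 21789 had 1 gene symbol in the platform annotation, 1621 had several and were not used, and the probe set of highest mean stood for each of the 999 genes that had several.

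Differences were fitted with limma 3.58.1 in R 4.3.3, 1 mean per group over 24 arrays, with 16 residual and 6.56 prior degrees of freedom, and adjusted by Benjamini-Hochberg over 19938 genes. The script was tested on simulated data. There were 23 comparisons, 3 of them added after the data were seen (ICN1 against R1984A over both treatments, and DNMAML against ICN1 in DMSO and in GSI alone). The titles give replicate numbers 1 to 3 in every group. Same-numbered samples were taken as paired where the correlation of their deviations from the group means was over 0.1 in every pair. This held for DNMAML and MigR1 in each treatment and over both (lowest r 0.106), GSI in MigR1 cells (0.158) and in DNMAML cells (0.168), DNMAML with ICN1 in DMSO (0.110), and ICN1 or R1984A with MigR1 (0.144 and 0.203) and ICN1 with R1984A (0.194) in DMSO, and the replicate number was then a block in an alternative fit. The members were listed by name, and members, lists and tests were chosen with earlier results of these data known. All members may be named. From the other cell-cycle lists up to 4 called genes with the largest difference are given, and the cell type markers were chosen for the text after their values were seen.

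Alternatives were a second quantile normalization, median centring, array weights, leaving out dim genes, every probe set in the fit, the replicate block, an intensity trend, a fit of only the groups compared, leaving out each array, and, added after seeing the data, leaving out all replicate 3 arrays. Sequences were read from RefSeq promoters of GRCm38.p6.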

Additional observations from a re-analysis of the deposited data

How the results depend on the processing

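Of the 69 calls of single members, 0 changed sign in any alternative, a weak check of differences already called. Leaving out 1 array kept 467 of 648. A second quantile normalization kept 67, array weights 67, leaving out dim genes 69, every probe set 56, the replicate block 69, an intensity trend 68, a fit of only the groups compared 46, leaving out all replicate 3 arrays 40 and median centring 30. The cause of these losses was not tested, except that fewer arrays enter the fits of only the groups compared and those without arrays. Small differences are limited by the 3 arrays per group.

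Counts of called members that moved by over 1.5 times were as follows. In this list the share of all genes called is given only for the fit without all replicate 3 arrays. A second quantile normalization gave 6 for DNMAML over MigR1 in DMSO and 9 over both treatments, 22 for DNMAML over ICN1 in GSI, 4 for ICN1 against MigR1 in GSI and 5 over both, 0 for R1984A against MigR1 in either treatment, and 2 and 1 for ICN1 against R1984A in GSI and DMSO. Median centring gave 15 for DNMAML over ICN1 (2 in DMSO, 9 in GSI), 0 for DNMAML over MigR1 in DMSO, 1 for ICN1 against MigR1 in GSI and 0 over both, 0 for R1984A against MigR1 in each treatment and 1 over both, and 0 for ICN1 against R1984A in GSI and over both. Array weights gave 7 for DNMAML over MigR1 and 13 for DNMAML against ICN1 in DMSO (12 higher, 1 lower), 1 for ICN1 and 2 for R1984A against MigR1 and 1 for ICN1 against R1984A, all in DMSO. Leaving out dim genes gave 7 for DNMAML over MigR1 over both and 2 for ICN1 against R1984A in GSI. Every probe set in the fit gave 1 for ICN1 against MigR1 in GSI, 0 for R1984A against MigR1 in DMSO and 1 over both. An intensity trend gave 2 for ICN1 against R1984A in GSI and 5 for ICN1 against MigR1 over both. Only the groups compared gave 0 for DNMAML over MigR1 in DMSO, 7 for DNMAML over ICN1 in GSI, 0 for ICN1 against MigR1 in GSI and 1 in DMSO, 0 for R1984A against MigR1 in each treatment and 1 over both, and 0 for ICN1 against R1984A in GSI and 1 over both. Without all replicate 3 arrays there were 0 for R1984A against MigR1 in GSI and over both, where 1.17% and 1.70% of all genes were called. There were 0 and 1 for ICN1 against R1984A in GSI and over both, where 0.647% and 2.48% were called.

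With the replicate block, the pairing moved counts to 18, 1 and 23 for DNMAML over MigR1 in DMSO, in GSI and over both, 24 for DNMAML against ICN1 in DMSO, 1 for ICN1 and 2 for R1984A against MigR1 and 2 for ICN1 against R1984A in DMSO. It changed no other call of the paired comparisons. Where at least 1 pair correlated below 0.1, the samples were not taken as paired by this cut-off, though other pairs could correlate more. For R1984A-GSI with MigR1-GSI, r was 0.49, -0.062 and 0.57 in replicates 1, 2 and 3. In these comparisons the block gave 30 for DNMAML against ICN1 in GSI and 35 over both (11.3% and 17.4% of all genes called), 9 and 6 for ICN1 against MigR1 in GSI and over both (4.81% and 6.70%), 4 for R1984A against MigR1 over both (3.76%), and 3 and 14 for ICN1 against R1984A in GSI and over both (2.89% and 6.13%).

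Leaving out 1 array gave 17 to 28 for DNMAML over ICN1, 3 to 8 in DMSO and 9 to 16 in GSI, 0 to 3 for DNMAML over MigR1 in DMSO and 3 to 6 over both, 1 to 4 for ICN1 against MigR1 in GSI and 2 to 6 over both, 0 for R1984A against MigR1 in GSI, 0 to 1 in DMSO and 1 to 2 over both, and 0 to 3 for ICN1 against R1984A in GSI and 1 to 3 over both.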
